A study of Harpegnathos saltator with 14 samples.

Results

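Embryos and late pupae of the ponerine ant Harpegnathos saltator were compared by RNA sequencing of polyadenylated RNA from whole bodies. Both stages had 2 libraries, so the comparison rests on 4 of the 14 libraries of the series, which also covers larvae of instar 1 and instar 4, early pupae, adult workers and males. Gene models were kept when at least 2 of the 4 libraries reached an RPKM of 1, where RPKM is reads scaled to the length of the gene and to the size of the library. This left 11288 of 20755 gene models. A further 1061 reached that level in 1 of the 4 libraries and 8406 in none. The second highest of the 4 values lay from 1 to below 1.1 in 156 genes just inside the filter and from 0.9 to below 1 in 175 genes just outside it.

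The embryo and the pupa are the stages of a holometabolous insect that do not feed. In the embryo, cell division and patterning build the larval body from maternal stores, first with transcripts loaded into the egg and then with transcripts of the zygote. In the pupa, most larval tissues are broken down, and imaginal cells form the adult cuticle, eyes, antennae, muscles and legs, with the adult cuticle laid down and tanned in its later part.

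The labels give the stage and the whole body for each library, and name the adults as workers or males. They give no sex or caste for embryos, larvae and pupae, and no age in days or number of animals. All animals were kept in plaster nests in the laboratory and fed live crickets. The labels do not say that replicates came from separate animals or colonies, so every p-value below speaks of the variation between libraries alone, part of which may be technical. The internal references in the labels carry 1 run name throughout and begin with ND for both embryo libraries and with H for both late pupa libraries. What these letters mark is not stated, and it cannot be told apart from the stage. Genes carry HSALG or XLOC identifiers, of which 0 matched the gene names used here. The stages could therefore not be checked against marker genes, and genes are given by identifier.

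Reads in genes numbered 5650769 and 8002026 in the embryo libraries and 6676312 and 14227119 in the late pupa libraries, within a range of 4284417 to 14227119 over the series. The numbers of gene models at an RPKM of 1 were close, at 10730 and 10412 in embryos against 10344 and 10849 in late pupae. Across the genes tested, Pearson's r of log2(RPKM + 1) was 0.870 between the embryo libraries and 0.913 between the late pupa libraries. The 4 pairs of an embryo with a late pupa library gave 0.467 to 0.564. Embryo libraries lay at least 4-fold apart for 483 genes (4.28%) and late pupa libraries for 162 (1.44%). These correlations are across genes, which are not independent replicates, and carry no test.

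The stages differed in how their reads were spread over genes. In the embryo libraries, the 10 most abundant genes took 8.99% and 7.32% of gene reads, whereas in the late pupa libraries they took 43.9% and 32.7%. It took 793 and 782 genes to hold 50% of gene reads in embryos and 29 and 88 genes in late pupae. The late pupa libraries differed from each other in this respect, and both lay far from the embryo libraries. Concentration was not particular to late pupae. To hold 50% took 259 and 154 genes in instar 1 larvae and 4 in both instar 4 libraries. Early pupae took 291 and 6 genes, workers 69 and 124, and males 311 and 144. The single most abundant gene took 1.16% and 1.14% of gene reads in embryos, against 16.5% and 13.01% in late pupae.

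**Figure D1:**
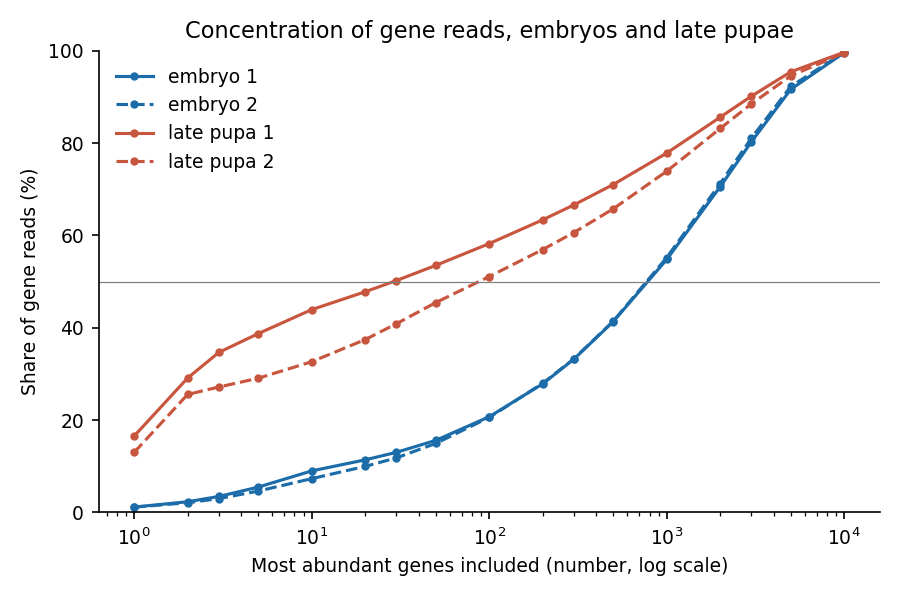
Share of gene reads (percent, vertical axis) held by the most abundant genes against their number (log scale, horizontal axis) in the 2 embryo libraries (blue) and the 2 late pupa libraries (red), with replicate 1 solid and replicate 2 dashed. The embryo curves lie on each other and cross the grey line at 50% near 793 and 782 genes, and the late pupa curves cross it at 29 and 88 genes.

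Different genes headed the libraries. Of the 10 most abundant genes of each library, 9 were shared by the embryo libraries and 4 by the late pupa libraries, and 0 were among the 10 of all 4 libraries. HSALG005795.2 was among the 10 of both embryo libraries and of late pupa replicate 1. When genes were ranked by their mean share of reads within a stage, the top 100 of embryos and the top 100 of late pupae had 22 genes in common. The top 100 of embryos held 19.4% and 19.8% of gene reads in embryos and 8.49% and 6.14% in late pupae. Their share was close to that of embryos in instar 1 larvae, at 19.4% and 18.1%, but lower in instar 4 larvae, at 6.53% and 6.36%, and again higher in workers, at 17.3% and 14.9%, and males, at 11.9% and 16.3%. The top 100 of late pupae held 57.5% and 50.8% of gene reads in late pupae and 9.16% and 8.91% in embryos. In the other groups their summed share ran from 11.7% in an instar 1 library to 47.6% in an instar 4 library. A summed share can come from a few of the 100 genes, so it does not show that each was abundant beyond the pupa. Which of them carried it in each group was not examined. Because genes were ranked on these libraries, the shares in embryos and late pupae are a description.

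The question of the comparison was which genes a forming adult body expresses at another level than a forming larval body. As deposited, RPKM was higher in late pupae than in embryos for 929 genes (8.23% of the genes tested) and lower for 4856 (43%), by limma on log2(RPKM + 1) at a Benjamini-Hochberg adjusted p below 0.05. At an unadjusted p below 0.05 there were 6579 genes. Most of the lower genes changed moderately: 1401 were lower by at least 4-fold and 91 by at least 16-fold, against 487 and 127 among the higher ones. At 256-fold or more, 19 genes were higher and 10 lower. Whole bodies mix all tissues, so fewer cells of a type and less RNA per cell cannot be told apart in any of these differences.

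The balance between higher and lower genes depended on the scale. The median gene lay 0.90 below embryos in late pupae on the log2 scale as deposited, and the spread of reads over genes moved with it. With the union of the 10 most abundant genes of each library set aside (26 genes), all other genes held 34.6% and 35.4% of the RPKM denominator in embryos and 19.5% and 22.5% in late pupae, a log2 ratio of -0.74. When libraries were scaled to equal medians, the median difference was -0.08, with 2056 genes higher (18.2%) and 1999 lower (17.7%). With quantile scaling it was -0.22, with 1626 genes higher (14.4%) and 2383 lower (21.1%). Which scale is right for these stages was not tested, and 0 genes passed from a call in one direction to a call in the other between these 3 scales.

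**Figure D2:**
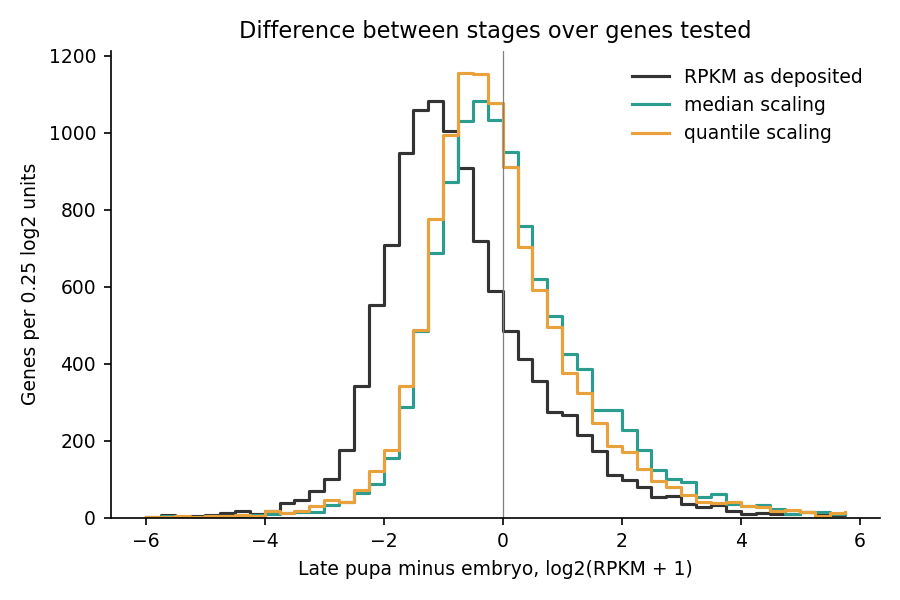
Number of genes tested (vertical axis, per 0.25 log2 units) by their difference between late pupae and embryos in log2(RPKM + 1) (horizontal axis, drawn from -6 to 6) under RPKM as deposited (black), median scaling (green) and quantile scaling (orange). The deposited values centre at a median of -0.90 and the scaled ones at -0.08 and -0.22, while the long right tail is present on all 3 scales.

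The genes that passed the test in the same direction on all 3 scales are described from here on. There were 877 higher in late pupae (7.77% of the genes tested) and 1812 lower (16.1%). By at least 4-fold as deposited, 483 were higher and 1185 lower, and by at least 16-fold 126 were higher and 88 lower. The 2 late pupa libraries both lay above the 2 embryo libraries for 874 of the 877 higher genes, where 14.9% of all genes tested did so. Both lay below them for 1812 of the 1812 lower genes, where 61.4% of all genes tested did so. The genes were called on these same 4 libraries, so this separation is a description. Late pupa libraries were at least 4-fold apart in 48 of the higher genes, with replicate 1 above replicate 2 in 24 of them. Embryo libraries were that far apart in 67 of the lower genes, with replicate 1 the higher in 4, so the embryo replicates differed mostly one way among these. By any margin, embryo replicate 1 lay above replicate 2 in 32.2% of all lower genes, against 56.7% of all genes tested. Late pupa replicate 1 lay above replicate 2 in 42.8% of all higher genes, against 36.6% of all genes tested.

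The number of such genes moved when 1 of the 4 libraries was left out. A stage left with 1 library makes each difference less precise, so calls can be lost whatever that library held. A count below, set against the full fit, cannot separate this from dependence on a particular library. Leaving out either library of a stage leaves the same design, so both counts of a stage can be set against each other. Why they differ was not tested. Without embryo replicate 1 there were 694 higher and 1844 lower. Without embryo replicate 2, late pupa replicate 1 or late pupa replicate 2, there were 512, 565 and 500 genes higher, and 1075, 1146 and 696 lower. Called in each fit that left out 1 of the 4 libraries were 323 of the 877 higher genes and 589 of the 1812 lower genes. On the deposited scale the higher count was 594, 589 and 524 without those libraries in turn, and the lower count was 3021 without late pupa replicate 1. In a fit of only the 4 libraries compared, which takes no spread from other stages, 733 of the higher genes and 448 of the lower genes passed the test on all 3 scales.

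**Figure D3:**
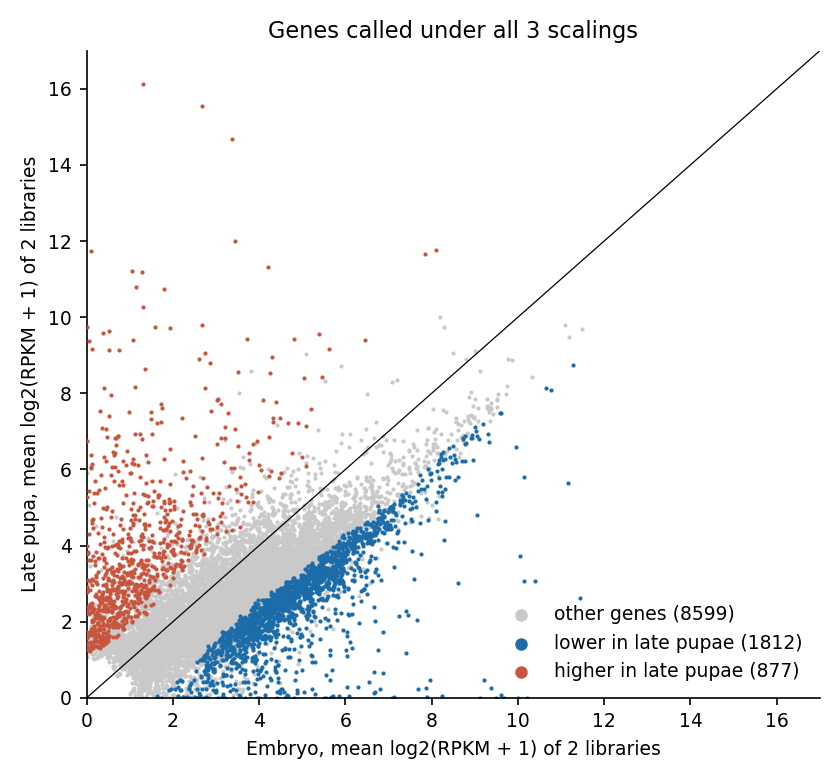
Mean log2(RPKM + 1) of the 2 late pupa libraries (vertical axis) against that of the 2 embryo libraries (horizontal axis) for the 11288 genes tested, with the line of equality. The 877 genes higher on all 3 scales (red) start near the left edge and reach far above all other genes, and the 1812 lower ones (blue) form a band below the line with a fringe of genes near 0 in late pupae.

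The largest increase was that of HSALG005415.2, a gene with a length of 636 bases in the RPKM. It stood at 0.318 and 3.63 RPKM in the embryo libraries, from 3 and 48 reads, and at 72498.6 and 69995.5 RPKM in the late pupa libraries, from 838880 and 1783485 reads. The libraries of each stage were close beside the gap between stages, and the gene alone took 12.6% and 12.5% of late pupa gene reads. Late pupae exceeded embryos by 14.82 ± 2.10 on the log2 scale (SE; limma, Benjamini-Hochberg adjusted p = 0.000513, and 1.84e-05 to 0.0056 over 30 alternatives). In early pupae it stood at 13655.6 RPKM in replicate 1 and at 67.2 in replicate 2, a gap between replicates that enters the SE of the fit. In the fit of only the 4 libraries, the SE was 0.66.

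XLOC_066657, 1107 bases long, was the most abundant gene in both late pupa libraries. Its RPKM was 7.25 and 3.96 in embryos, from 119 and 91 reads, and 54838.3 and 41744.1 in late pupae, from 1104447 and 1851335 reads. Early pupae held 7328.6 RPKM in replicate 1 and 31.8 in replicate 2, the same order of replicates as for HSALG005415.2. Adult workers held 3 and 0 reads, and males 0.176 and 208.2 RPKM, so the level did not persist in the worker libraries. The difference between late pupae and embryos was 12.87 ± 2.36 on the log2 scale (SE; limma, adjusted p = 0.00156, and 5.41e-06 to 0.0136 over 30 alternatives).

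The largest decreases ended at 0 reads. HSALG020744.1, with a length of 405 bases, stood at 514.7 and 2746.5 RPKM in the embryo libraries, from 3093 and 23116 reads, and at 0 reads in both late pupa libraries. Embryo replicate 2 exceeded replicate 1 severalfold here, and neither approached the late pupae. With late pupae set at a floor of 3 reads per library, embryos were at least 4004.9-fold higher by their mean and at least 1264.1-fold higher by embryo replicate 1 alone. The fitted log2 difference was -11.42 without embryo replicate 1 and -9.01 without embryo replicate 2. With both it was -10.22 ± 0.59 (SE; limma, adjusted p = 2.41e-06, and 8.86e-08 to 0.00521 over 30 alternatives). Instar 1 larvae held 13 and 14 reads, workers 44 and 53, and both instar 4, both early pupa and both male libraries held 0.

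HSALG015784.1, with a length of 723 bases, behaved alike. Its RPKM was 1244.7 and 854.9 in embryos, from 13353 and 12845 reads, and both late pupa libraries held 0 reads. At the floor of 3 reads per library, embryos were at least 4602.9-fold higher. The fitted log2 difference was -10.01 ± 0.41 (SE; limma, adjusted p = 2.45e-07, and 3.42e-08 to 0.00159 over 30 alternatives). Instar 1 larvae kept 31 and 5 reads, and instar 4, pupal, worker and male libraries held 3 reads or fewer. Floors cover counting error only, because reads were not tagged by molecule and are not independent of each other.

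The most abundant embryo genes showed smaller differences. HSALG005795.2, first in embryo replicate 2 and 1935 bases long, stood at 2093.4 and 2273.1 RPKM in embryos and at 1238.4 and 647.6 in late pupae. It was lower in late pupae by the deposited values (log2 difference -1.28 ± 0.38, SE; limma, adjusted p = 0.0165), but not under median scaling (-0.47, adjusted p = 0.463), and 8 of 30 alternatives ended the call, among them leaving out embryo replicate 1 (-1.34), embryo replicate 2 (-1.22) or late pupa replicate 2 (-0.82). HSALG013133.2, first in embryo replicate 1 and 10038 bases long, stood at 440.7 and 136.5 RPKM in embryos and at 31.7 and 20.2 in late pupae. Its log2 difference was -3.23 ± 0.86 as deposited (SE; limma, adjusted p = 0.00979), -2.41 under median scaling (adjusted p = 0.0833) and -2.50 under quantile scaling (adjusted p = 0.089). The call was also lost without embryo replicate 1 (-2.39) or late pupa replicate 2 (-2.91). For both genes, leaving out a library also makes the difference less precise, so a lost call need not come from that library's values. It was more abundant in workers than in embryos, at 859.0 and 865.4 RPKM, and among the 4 libraries compared its embryo replicates lay over 3-fold apart.

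**Figure D4:**
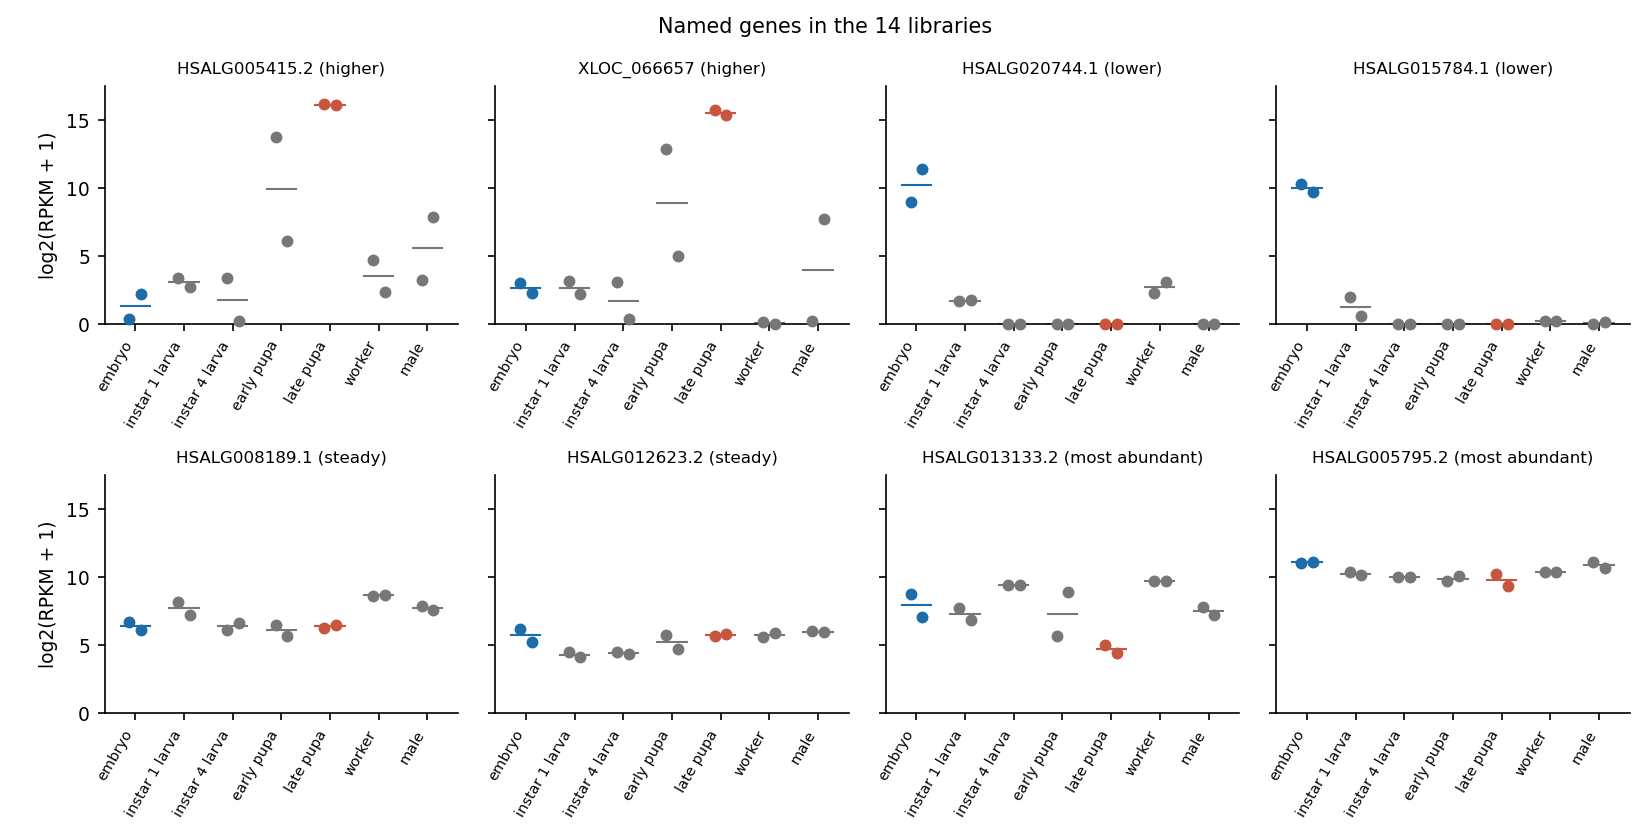
Level in log2(RPKM + 1) (vertical axis) of the 8 named genes in the 14 libraries, 2 points a group with their mean as a bar, embryos in blue, late pupae in red and other groups in grey. HSALG005415.2 and XLOC_066657 stand above 15 in late pupae and high in 1 of the 2 early pupa libraries, and HSALG020744.1 and HSALG015784.1 stand near 10 in embryos and at 0 in late pupae.

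Most genes were expressed in both stages. An RPKM of at least 1 was reached in all 4 libraries by 8819 of the genes tested. Both embryo libraries and neither late pupa library reached it for 572 genes, of which 185 were lower on all 3 scales. Both late pupa libraries and neither embryo library reached it for 587 genes, of which 368 were higher on all 3 scales. These genes differed by the way they were sorted, so the counts of calls among them are a description. The remaining 1310 genes had other patterns.

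Genes with no read at all in one stage were equally many on both sides, but the stages were not sequenced to equal depth. The RPKM denominators were 14838490 and 20781728 reads in embryos and 18193373 and 40062882 in late pupae. In 33 genes the embryo libraries held 0 reads while both late pupa libraries reached an RPKM of 1, with a median late pupa mean of 3.71 RPKM and a highest of 873.3. In another 33 genes the late pupa libraries held 0 reads while both embryo libraries reached an RPKM of 1, with a median embryo mean of 13.04 RPKM and a highest of 1630.6, that of HSALG020744.1. A count of 0 allows up to 3 reads per library, so these genes were not detected at this depth and are not shown to be silent.

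The shares of higher and lower genes varied with abundance. To keep both stages compared out of the grouping, genes were sorted by their mean RPKM over the 10 libraries of the other groups. This choice was made after seeing the data. The 10 libraries include early pupa replicate 1, whose median over the higher genes was 8.74 RPKM, beside 8.89 and 9.55 in late pupae. The grouping is therefore not free of the difference between the stages, and genes high in pupae can enter the upper classes through that library. Below 5 RPKM, 8.70% of 5296 genes were higher in late pupae on all 3 scales and 12.3% lower. From 10 to 50 RPKM, 6.44% of 2827 genes were higher and 20.6% lower. From 100 to 1000 RPKM, 14.4% of 389 genes were higher and 15.7% lower. At 1000 RPKM and more, 16 of 38 genes were higher and 4 lower. On the deposited scale lower genes outnumbered higher ones in each class below 1000 RPKM, with 502 higher and 1832 lower below 5 RPKM, and 17 were higher and 8 lower in the class above. The shares were not tested against each other, and the pseudocount of 1 shrinks the differences of low genes.

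The most abundant genes of a stage lean towards being higher in it, since they were ranked on these libraries, so their calls are a description. Of the top 100 genes of late pupae, 67 were higher and 3 lower in late pupae on all 3 scales. Another 2 of them were outside the filter, since they reached an RPKM of 1 in late pupa replicate 2 alone. Of the top 100 of embryos, 43 were lower and 2 higher in late pupae, and on the deposited scale 77 were lower.

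The classes of identifier were called in different shares, and for XLOC genes the balance turned with the scale. Of 10952 HSALG genes tested, 7.71% were higher on all 3 scales and 16.2% lower. Of 336 XLOC genes tested, 9.82% were higher and 10.7% lower, that is 33 and 36 genes. As deposited, 35 XLOC genes were higher and 98 lower. Median scaling turned this to 98 and 37, and quantile scaling gave 71 and 64. The median log2 difference as deposited was -0.91 for HSALG and -0.34 for XLOC genes. The share of calls in each class was not tested against the other. The median gene length was similar for the HSALG genes of both lists, at 1060 bases for those higher, 1075.5 for those lower and 1085 for all tested.

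Genes higher in late pupae often had consecutive identifiers. The next HSALG number was tested for 440 of the higher genes, and it was itself higher in 121 cases (27.5%), against 451 of 6830 (6.60%) over all genes tested. For the lower genes the next number was also lower in 308 of 1245 cases (24.7%), against 1240 of 6830 (18.2%) over all genes tested. The next number after a higher gene was lower in 54 cases (12.3%). Whether consecutive numbers are neighbours in the genome is not stated, near-identical copies that could share reads were not examined, and no test was made of these shares.

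The genes higher in late pupae were not all at their peak there. Their median RPKM was 0.942 and 0.764 in embryos and 8.89 and 9.55 in late pupae. It was 1.42 and 0.997 in instar 1 larvae, 1.25 and 1.10 in instar 4 larvae, 3.26 and 3.76 in workers and 3.24 and 3.01 in males. Early pupae were split, at 8.74 in replicate 1 and 1.74 in replicate 2, so that 1 early pupa library stood beside late pupae and the other beside larvae. The highest group mean lay in late pupae for 438 of the 877 genes (49.9%), in workers for 155, in early pupae for 130, in males for 116 and in larvae for 38 (26 in instar 4 and 12 in instar 1). Over all genes tested it lay in late pupae for 9.58%, a share that the choice of the list raises.

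The genes lower in late pupae mostly had their highest mean in the embryo. Their median RPKM was 23.3 and 29.5 in embryos and 14.1 and 9.97 in instar 1 larvae. It was 4.08 and 3.96 in instar 4 larvae, 4.43 and 4.83 in late pupae, 5.65 and 6.66 in workers and 7.66 and 5.91 in males. Embryos held the highest group mean for 1501 of the 1812 genes (82.8%) and instar 1 larvae for 261 (14.4%), against 50.3% and 11.4% over all genes tested. The genes were chosen for a higher level in embryos than in late pupae, which raises the embryo share and leaves late pupae none. The lowest mean lay in instar 4 larvae for 916 genes (50.6%) and in late pupae for 433 (23.9%), against 39.3% and 11.7% over all genes tested.

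**Figure D5:**
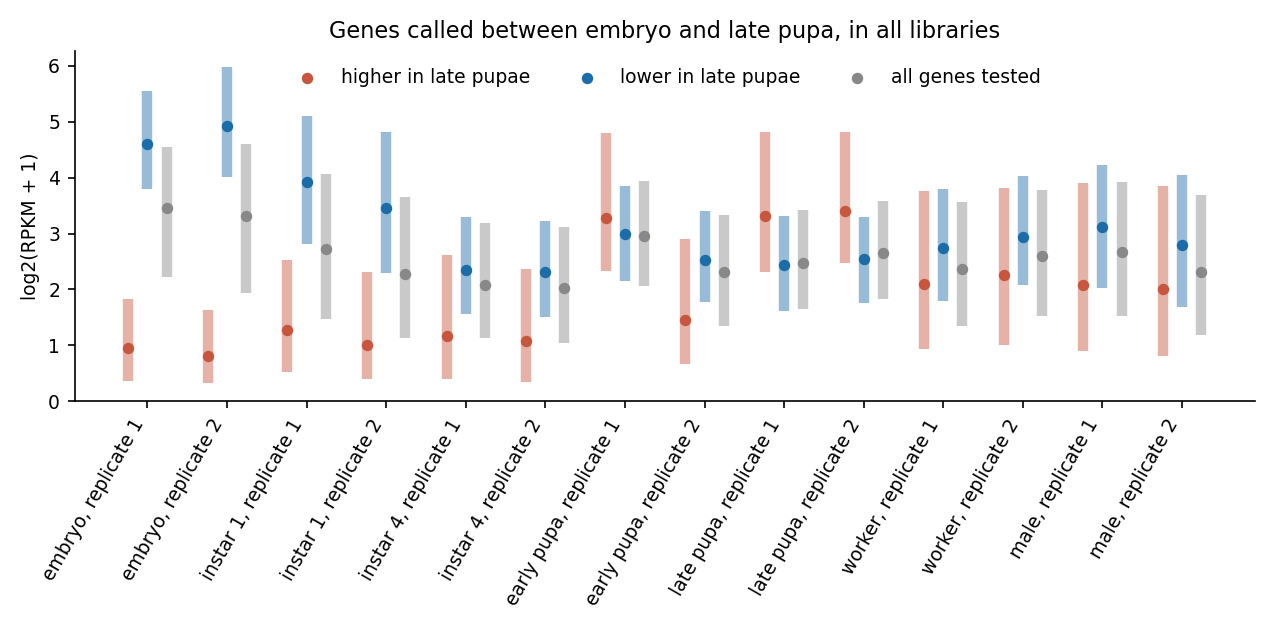
Level in log2(RPKM + 1) (vertical axis) in each of the 14 libraries for the 877 genes higher in late pupae (red), the 1812 lower ones (blue) and all 11288 tested (grey), with the median as a point and the middle 50% of genes as a bar. The red medians are low in embryos and larvae, high in late pupae and in 1 early pupa library and between these in adults, and the blue medians fall from embryos over instar 1 to instar 4 larvae.

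Adult workers against instar 1 larvae offered a comparison of a later with an earlier body that shares no library with the one above, although all libraries share 1 estimate of the spread. Calls between workers and instar 1 larvae rest on RPKM as deposited alone, whereas both late pupa lists passed the test on every scale. Over all genes tested, 1164 were higher in workers as deposited (10.3%) and 1748 lower (15.5%), with a median log2 difference of -0.09. Of the 877 genes higher in late pupae, 291 were higher in workers (33.2%) and 32 lower, with a median of 0.87. Of the 1812 genes lower in late pupae, 723 were lower in workers (39.9%) and 47 higher, with a median of -0.87. The shared genes made up 25.0% of all genes higher in workers and 41.4% of all genes lower in workers. Under median and quantile scaling the medians were 0.90 and 0.80 for the higher and -0.85 and -0.72 for the lower genes. No test was made of these overlaps.

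Embryos and late pupae were also set together against the feeding larvae of instars 1 and 4 and the workers. On all 3 scales 678 genes were higher in the mean of the non-feeding stages (6.01%) and 538 lower (4.77%). As deposited the counts were 3616 and 594, and under median scaling 730 and 1501, so the balance turned with the scale. Of the 678 genes, 341 were not called between embryos and late pupae as deposited (50.3%, against 48.8% of all genes tested). In late pupae 66 of them were higher (9.73%) and 140 lower (20.6%) on all 3 scales, near the 7.77% and 16.1% over all genes. Of the 538 genes, 104 were higher in late pupae (19.3%) and 24 lower (4.46%). For 2553 genes (22.6%), as deposited, the means of both stages exceeded the mean of each of the 3 other groups. The 678 fell to 264 without late pupa replicate 2, to 449 without instar 1 replicate 2, to 360 and 338 without instar 4 replicate 1 or 2, and to 338 and 312 without worker replicate 1 or 2. The 538 fell to 253 without late pupa replicate 2, to 349 without embryo replicate 1 and to 351 without instar 4 replicate 2.

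Few genes could be called steady between the stages. The 95% interval of the log2 difference lay within -1 and 1 for 346 genes as deposited (3.07%). These were low in abundance, with a median of 2.27 RPKM over the 4 libraries against 8.21 for all genes tested. The pseudocount of 1 shrinks the differences of low genes, which makes this limit easier for them to meet. For 5157 genes neither a difference nor steadiness was shown, since the median interval was 1.86 log2 units wide. The most abundant steady gene, HSALG008189.1, stood at 101.5 and 69.4 RPKM in embryos and at 76.9 and 89.7 in late pupae, with overlapping groups and a log2 difference of -0.02 (interval -0.92 to 0.89). HSALG012623.2 stood at 73.8 and 37.2 RPKM in embryos and at 49.3 and 56.9 in late pupae, with a log2 difference of 0.01 (interval -0.89 to 0.91). Under quantile scaling both were higher in late pupae, by 1.16 (limma, adjusted p = 0.0456) and 1.30 (adjusted p = 0.0311). Neither gene kept its interval within -1 and 1 when 1 of the 4 libraries was left out. The differences were 0.26 and 0.50 without embryo replicate 1, and -0.29 and -0.47 without embryo replicate 2. They were 0.09 and 0.12 without late pupa replicate 1, and -0.13 and -0.09 without late pupa replicate 2. A stage left with 1 library makes the difference less precise, and the intervals nearly filled the limit with both. These losses therefore cannot show that steadiness rested on single libraries. With the 4 libraries only, the interval of HSALG012623.2 was -1.02 to 1.04. The number of steady genes depended on the scale: 1915 genes met the limit under median scaling and 1965 under quantile scaling, but 1 gene on all 3 scales.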

How the data were processed

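Per the labels' protocols, TRIzol extracts of whole bodies were freed of DNA, fragmented, primed with random hexamers and made strand-specific with dUTP. The deposited values are RPKM computed by the authors, given to 6 significant digits. STAR 2.5.0b and DESeq2 are named, per the submitters' processing notes, without a role. How reads were counted, on which build and with which lengths is not given in the sources.

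Groups came from the labels. Genes, comparisons and lists were chosen with earlier results of these data known. RPKM values of 18543 genes above 0 were turned into whole reads and lengths, within rounding of the 6th digit plus a relative 1e-07. Of tested HSALG lengths 97.7% were multiples of 3 (coding length), of XLOC lengths 37.2%. No count model was the main test.

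log2(RPKM + 1) of all 14 libraries, with 7 group means, an intensity trend and no block, entered a single fit in limma 3.58.1 (R 4.3.3, two-sided, Benjamini-Hochberg over all genes tested). An exact permutation of 2 against 2 libraries cannot go below p = 0.333. Fold changes are on this scale, which understates low genes. The scripts were tested on simulated data.

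Genes are named by rule: the 2 largest differences each way among called genes with no overlap between stages, a change of 2-fold or more and a higher stage with mean RPKM from 10 up, the 2 most abundant steady genes, and the most abundant gene of each library. Planned gene lists and markers were not used, since 0 identifiers matched the 14329 genes of the reference table. Alternatives were a pseudocount of 0.1, median and quantile scaling, other filters (none, all 14 libraries, mean RPKM from 5 up), no trend, library weights, limma-voom on the recovered reads, a 2-fold minimum, a replicate block, only the groups compared, and leaving libraries out. Added after seeing the data were the requirement of all 3 scalings, scaling to gene reads without the most abundant genes, and blocks with 4 libraries. Python 3.11.15 with pandas 2.3.3 and matplotlib 3.10.9 made summaries and figures.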

Additional observations from a re-analysis of the deposited data

How the results depend on the processing

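Of 217 counts of genes under 31 alternative settings, 167 stayed within 1.5 times the reported count and 50 did not, and 0 of the 6 named genes called in either direction reversed it. The 12 lost calls among these were those of HSALG013133.2 and HSALG005795.2. The 2 named steady genes left the limit in 21 of 58 cases, among them leaving out any of the 4 libraries compared, where the difference is less precise. Median scaling gave 2056 higher and 1999 lower genes in late pupae, quantile scaling 1626 and 2383, and scaling to gene reads without the most abundant genes 1207 and 1519. Against larvae and workers, median scaling gave 730 higher and 1501 lower genes, quantile scaling 1008 and 1047, and a 2-fold minimum 1914 higher. Steady genes numbered 1915 and 1965 under median and quantile scaling. A mean RPKM of at least 5, which tests fewer genes, left 486 higher genes as deposited and 479 on all 3 scales. With the 4 libraries only, 473 genes were lower on all 3 scales. All 877 higher genes and 1286 of the 1812 lower genes were also called when scaled to gene reads. The cause of the other changes was not tested.

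Leaving out 1 library gave 524 to 1255 higher and 3021 to 5394 lower genes as deposited, and 500 to 1200 and 696 to 2065 on all 3 scales. Against larvae and workers it gave 964 to 4780 higher and 305 to 738 lower genes as deposited, and 264 to 992 and 253 to 712 on all 3 scales. A stage left with 1 library is assumed to vary like the others. The upper end of each range came from leaving out an early pupa library. Early pupae are in neither comparison but enter the shared estimate of the spread, and their replicates differed strongly. Without both early pupa libraries, 1254 genes were higher and 5389 lower as deposited, against 929 and 4856 with them. On all 3 scales there were 1199 and 2064, against 877 and 1812.

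Whether equal replicate numbers pair the libraries was not settled. Deviations of same-numbered embryo and late pupa libraries correlated at -0.19 across genes, which are not independent replicates. A replicate block gave 903 higher and 4760 lower genes. With 4 libraries only, no block gave 967 and 4371, a same-number block 701 and 2757, and a crossed block, chosen after seeing the data, 1231 and 5005.

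With 2 libraries a stage, the median 95% interval of a log2 difference was 1.86 wide, and a count of 0 allows up to 3 reads.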
